A study of Mus musculus with 16 samples.

Results

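A set of 10 genes of epithelial junctions and keratin filaments were followed in fat of female mice, out of the 32187 genes listed in 1 or both of the deposited tables. The genes were Cgn, Cldn1 and Cldn3 of tight junctions, Ppl of desmosomes, Cdh1 of adherens junctions, the adhesion molecule Epcam, the simple keratins Krt8 and Krt18, and the basal keratins Krt14 and Krt5. Each symbol was matched to its Ensembl identifier, and all 10 were present in both tables. They were selected on their measured levels in gonadal fat, the LCN2 and GFP values of that depot being among those that chose them, so the gonadal difference between vectors is given as a description only.

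All mice, controls included, were Lcn2-null females (B6.129P2-Lcn2tm1Aade/AkiJ) on a C57BL/6J background. At 8 weeks of age they had been injected intravenously with an AAV8 vector coding for LCN2, the secreted iron-carrier-binding protein lipocalin-2, or for green fluorescent protein (GFP) as the control. Both vectors used the adiponectin promoter, which is active in fat cells, and carried a microRNA122 target sequence that has the transcript degraded in liver. The mice stayed on an HF/HS diet until they were sampled at 16 weeks. Whole tissue of each depot, gonadal and subcutaneous, was sequenced in 4 LCN2 samples and 4 GFP samples per depot and 16 samples in all. Gonadal libraries held 35173260 to 42890102 reads, recovered from the deposited normalized counts, while read totals of the subcutaneous libraries are unknown.

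Epithelial sheets are sealed by tight junctions, in which claudins form the strands and cingulin, the product of Cgn, joins the strands to the actin cortex. Below them E-cadherin (Cdh1) forms adherens junctions, and desmosomes tie neighbouring cells to keratin filaments, with periplakin (Ppl) as a linker. Krt8 and Krt18 pair into the filaments of simple epithelia, and Krt5 and Krt14 into those of basal and myoepithelial cells. Adipocytes are not epithelial, but gonadal fat is covered by mesothelium, a flat epithelium rich in simple keratins, and subcutaneous fat of female mice contains the mammary ducts. Both depots were rich in adipocyte transcripts: 7 of 7 adipocyte markers were measured in each, with a median rank at the percentile 99.9 of the genes present in both tables.

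The windows around the transcription starts of a few of the genes are shown because the genes that varied together in each depot are compared later, and the windows differ in their letters. RefSeq windows of the build GRCm38.p6, reaching from 250 bases before to 50 bases after the start, were available for 8 of the 10 genes, and those of Ppl and Cdh1 were not analysed here. Capitals mark the E-box CACCTG or its reverse complement CAGGTG, which zinc-finger repressors of epithelial genes such as Snai1 and Zeb1 are known to bind, and ACCGGT, the core of the motif of grainyhead factors. Cgn lies at chr3:94786433-94786732 (minus strand), Cldn1 at chr16:26371790-26372089 (minus strand), Epcam at chr17:87635729-87636028 (plus strand) and Krt18 at chr15:102027966-102028265 (plus strand), each written 5′ to 3′ on the strand of its gene.
Cgn: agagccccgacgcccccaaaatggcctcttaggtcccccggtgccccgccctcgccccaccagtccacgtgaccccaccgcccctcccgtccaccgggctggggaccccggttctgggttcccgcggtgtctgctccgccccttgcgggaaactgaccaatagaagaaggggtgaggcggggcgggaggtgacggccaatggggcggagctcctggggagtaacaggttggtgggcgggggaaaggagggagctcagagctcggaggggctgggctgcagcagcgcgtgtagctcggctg
Cldn1: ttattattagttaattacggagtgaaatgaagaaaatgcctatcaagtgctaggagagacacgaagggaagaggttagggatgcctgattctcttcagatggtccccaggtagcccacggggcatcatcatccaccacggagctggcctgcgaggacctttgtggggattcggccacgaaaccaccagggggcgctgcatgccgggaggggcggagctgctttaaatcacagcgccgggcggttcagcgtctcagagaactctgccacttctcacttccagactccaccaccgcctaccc
Epcam: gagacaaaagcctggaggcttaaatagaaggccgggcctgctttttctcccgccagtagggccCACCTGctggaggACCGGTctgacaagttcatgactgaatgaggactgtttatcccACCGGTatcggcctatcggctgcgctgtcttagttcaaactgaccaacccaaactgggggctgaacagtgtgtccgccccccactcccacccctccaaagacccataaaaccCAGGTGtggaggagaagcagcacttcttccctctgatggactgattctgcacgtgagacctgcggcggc
Krt18: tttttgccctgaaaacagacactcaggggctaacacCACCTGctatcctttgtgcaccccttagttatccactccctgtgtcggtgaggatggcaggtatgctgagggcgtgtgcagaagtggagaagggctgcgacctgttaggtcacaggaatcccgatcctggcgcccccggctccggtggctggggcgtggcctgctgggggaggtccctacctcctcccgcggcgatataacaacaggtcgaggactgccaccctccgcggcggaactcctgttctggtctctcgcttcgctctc

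The E-box was found in 5 of the 8 windows, those of Cldn3, Epcam, Krt8, Krt18 and Krt5, and in 20.2% of 32851 RefSeq windows of the same length on either strand. Epcam had 2 matches and the other four had 1 each, while Cgn, Cldn1 and Krt14 had 0. ACCGGT was found in 2 places in Epcam, in none of the other 7 windows and in 2.33% of all windows. TATAAA, the TATA box, was searched on the strand of the gene only. It was found in the Krt8 window and in 8.32% of all windows, and it overlapped no other match. The Cgn window was the richest in G and C of the 8, at 70.3%, and Krt14 the poorest, at 48.3%, with a median of 52.7% over all windows. The Krt14 window, at chr11:100205981-100206280 (minus strand), lay inside the annotated gene, which starts at 100207548 on that strand. The letters of that window therefore do not describe the region before the annotated start. These matches describe the letters of the windows only.

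The genes are spread over 7 chromosomes of GRCm38. Krt8 (ENSMUSG00000049382, chromosome 15, 101996698 to 102004482, minus strand), Krt18 (ENSMUSG00000023043, chromosome 15, 102028180 to 102032027, plus strand) and Krt5 (ENSMUSG00000061527, chromosome 15, 101707070 to 101712898, minus strand) lie near each other, Krt14 lies on chromosome 11 (ENSMUSG00000045545, 100203162 to 100207548, minus strand), and Cldn1 (ENSMUSG00000022512, 26356642 to 26371841) and Ppl (ENSMUSG00000039457, 5086291 to 5132421) both lie on the minus strand of chromosome 16. Cgn is on chromosome 3 (ENSMUSG00000068876, 94760069 to 94786492, minus strand), Cldn3 on chromosome 5 (ENSMUSG00000070473, 134986214 to 134987472, plus strand), Cdh1 on chromosome 8 (ENSMUSG00000000303, 106603351 to 106670246, plus strand) and Epcam on chromosome 17 (ENSMUSG00000045394, 87635979 to 87651129, plus strand). A gene on the opposite strand overlaps 5.9% of the exonic bases of Krt5, 5.2% of those of Krt8 and 3.2% of those of Cldn3, and Krt8 also has 1 named pseudogene. The strand setting of the authors' counting is not given in the sources used here, so a small part of the reads of these 3 genes may belong to their neighbours.

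Most of the 10 genes held quite different ranks in the 2 depots. Ranks were taken from the mean level per kb of exon, as a percentile of the 28915 genes with a known length in both tables, since the tables had been normalized separately and their values cannot be set side by side. In subcutaneous fat Krt18 stood at the percentile 98.1, Krt8 at 96.9, Epcam at 94.3, Cldn3 at 90.6, Cdh1 at 88.4, Krt14 at 87.4 and Krt5 at 86.5. In gonadal fat the same genes stood far lower, Krt18 at 61.7, Krt8 at 57.1, Cldn3 at 38.1, Epcam at 32.7, Krt14 at 25.2, Cdh1 at 18.7 and Krt5 at 4.01.

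**Figure D1:**
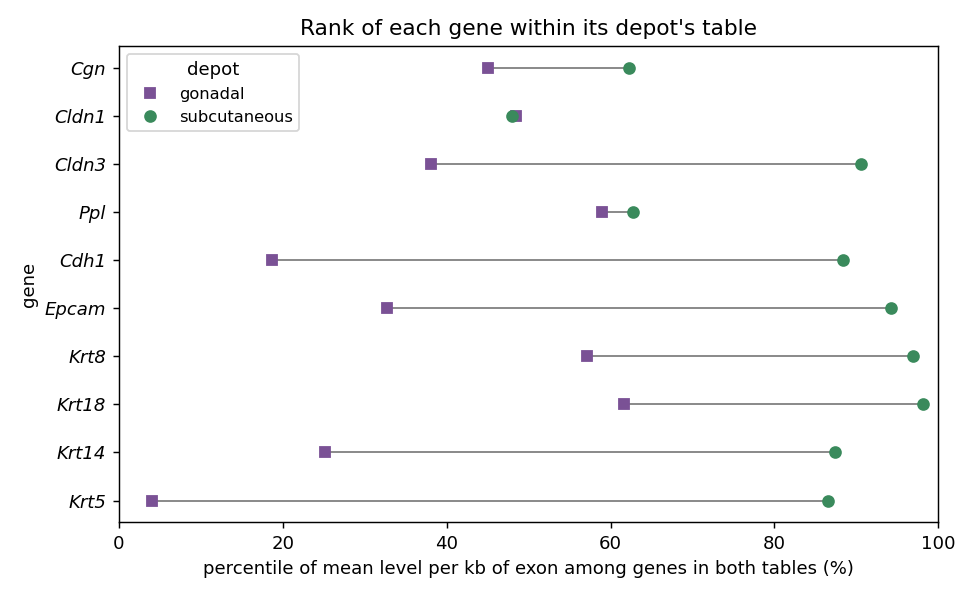
The horizontal axis gives the percentile of each gene's mean level per kb of exon among genes present in both tables, with gonadal fat as squares and subcutaneous fat as circles. Cldn1 and Ppl differ little between the depots, at 48.5 and 48.0 for Cldn1 and at 59.0 and 62.7 for Ppl in gonadal and subcutaneous fat, while Krt5 stands at 4.01 in gonadal and 86.5 in subcutaneous fat.

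Cldn1, Ppl and Cgn were the exceptions. Cldn1 stood at the percentile 48.5 in gonadal and 48.0 in subcutaneous fat, Ppl at 59.0 and 62.7, and Cgn at 45.1 and 62.2, in the same order of depots. The order of depots was the same in wider lists: 20 epithelial regulators, among them Grhl2 and Esrp1, had a median percentile of 26.4 for gonadal and 62.5 for subcutaneous fat, and for 14 other keratins the median percentile was 24.6 in gonadal fat, against 46.4 in subcutaneous fat. Mesothelial markers ran the other way, with a median percentile of 73.7 in gonadal and 29.0 in subcutaneous fat over 11 genes. Skin keratinocyte markers differed little, with a median percentile of 28.4 in gonadal and 26.0 in subcutaneous fat over 10 genes. Differences in rank between depots were not tested, since depot and table cannot be told apart.

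The vector was first checked by Lcn2 itself. Lcn2 had a normalized count of 186, 189, 522 and 481 in the 4 gonadal LCN2 samples, against 103, 62.1, 70.0 and 89.5 in the 4 GFP samples. In subcutaneous fat Lcn2 had rlog values of 8.74, 8.49, 9.45 and 9.82 in LCN2 samples, against 7.76, 8.32, 8.23 and 8.37 in GFP samples. Every LCN2 sample lay above every GFP sample in both depots, and reads were assigned to Lcn2 in the GFP samples of these Lcn2-null mice too, without a record of which part of the gene they came from. Some libraries also held transcripts of other tissues. Skeletal muscle markers were highest in gonadal LCN2 sample 4, with GFP sample 2 next, and their summed level was 53.6 to 1570.0 CPM in LCN2 samples, against 29.0 to 85.9 CPM in GFP samples. Hepatocyte markers were high in gonadal LCN2 samples 1 and 2 and GFP sample 1, and their summed level was 57.3 to 1210.0 CPM in LCN2 samples, against 52.9 to 423 CPM in GFP samples. In subcutaneous fat B cell and lymph node markers were high in LCN2 sample 4 and GFP samples 1 and 2, with a mean rlog of 5.72 to 8.93 in LCN2 samples, against 5.80 to 10.6 in GFP samples. Hepatocyte markers were highest there in GFP sample 2, with GFP sample 1 next. Their mean rlog was 6.10 to 6.65 in LCN2 samples, against 6.06 to 8.89 in GFP samples.

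In gonadal fat the tight junction genes Cgn and Cldn1 and the desmosomal Ppl were lower in every LCN2 sample than in any GFP sample. Cgn had normalized counts of 50.7, 81.7, 44.2 and 50.1 in LCN2 samples, against 226, 177, 163 and 246 in GFP samples. All LCN2 values lay well below all GFP values, with LCN2 sample 2 nearest to the GFP samples. The mean of Cgn was 56.7 ± 16.9 with LCN2 and 203 ± 39.3 with GFP (SD, n = 4 each), a log2 difference of -1.84 ± 0.22 (SE). Log2 differences in gonadal fat are on the scale of log2 of the normalized count plus 1, which understates the change of genes with low counts. In whole tissue, fewer cells of a type and less RNA per cell cannot be told apart.

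Cldn1, which codes for a strand-forming claudin, had normalized counts of 34.7, 61.5, 48.8 and 61.2 in LCN2 samples, against 151, 309, 159 and 334 in GFP samples. The GFP samples split into a lower pair, 1 and 3, and a higher pair, 2 and 4, while the LCN2 samples stayed within a narrow range below both. The log2 difference of Cldn1 was -2.13 ± 0.31 (SE), the largest in size among the 7 genes tested. Ppl had normalized counts of 244, 389, 211 and 312 in LCN2 samples, against 794.5, 719, 627 and 891 in GFP samples. The groups of Ppl were apart by a wide gap, and the log2 difference was -1.41 ± 0.19 (SE).

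The simple keratins did not separate the vectors in gonadal fat. Krt8 had normalized counts of 115, 212, 61.2 and 37.1 in LCN2 samples, against 172, 91.6, 88.0 and 247 in GFP samples. Krt18 had 90.7, 199, 47.6 and 48.1 in LCN2 samples, against 189, 116, 110.3 and 277 in GFP samples. For both keratins LCN2 sample 2 reached into the GFP range, and for Krt8 LCN2 sample 1 did too. GFP sample 4 was the highest of the 8 for both, and the groups overlapped. Their log2 differences were -0.65 ± 0.54 for Krt8 and -0.99 ± 0.48 for Krt18 (SE). That of Krt8 was -1.08 without LCN2 sample 2, -0.25 without LCN2 sample 4 and -0.36 without GFP sample 4. Without the 3 libraries high in hepatocyte markers, a choice made after seeing the data, it was -1.38 for Krt8 and -1.65 for Krt18. Epcam had counts of 10.7, 12.1, 9.07 and 4.01 in LCN2 samples, against 39.0, 11.2, 10.6 and 30.7 in GFP samples. GFP samples 2 and 3 lay within the LCN2 range and the log2 difference was -1.13 ± 0.51 (SE). Epcam passed the minimum mean of 10 only through the GFP samples. Its mean was 8.96 with LCN2 and 22.9 with GFP, from 36 and 95 reads, so its difference is a description only.

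Cldn3 was the only tested gene of the 10 with a positive difference in gonadal fat, and its error was as wide as the difference. Its normalized counts were 24.0, 34.3, 13.6 and 4.01 in LCN2 samples, against 15.8, 10.2, 1.06 and 14.1 in GFP samples, and the log2 difference was 0.87 ± 0.80 (SE). It depended on single libraries, at 0.17 without GFP sample 3, 0.48 without LCN2 sample 2 and 1.42 without LCN2 sample 4, and at 1.54 without the 2 libraries high in muscle markers, and it was 3.16 with the mesothelial score as a covariate. The groups overlapped, and LCN2 samples 1 and 2, where hepatocyte markers were high, were the 2 highest. Whether that plays a part in the values of Cldn3 was not tested.

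Cdh1, Krt14 and Krt5 had means under the minimum of 10 normalized counts and were not tested in gonadal fat. Cdh1 had 7.11, 23.2, 15.9 and 1.00 in LCN2 samples, against 8.44, 7.12, 4.24 and 7.46 in GFP samples, from 74 reads over the 8 libraries. Krt14 had 0, 11.1, 4.535 and 6.02 in LCN2 samples, against 11.6, 5.09, 2.12 and 12.4 in GFP samples, from 54 reads. The groups of both genes overlapped. Krt5 had 1 read over the 4 LCN2 libraries, in sample 3, and 4 reads over the 4 GFP libraries, in samples 1 and 4, so every library was below the limit of 3 reads that a count of 0 allows and no difference was detectable at this depth. That limit covers counting error only.

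**Figure D2:**
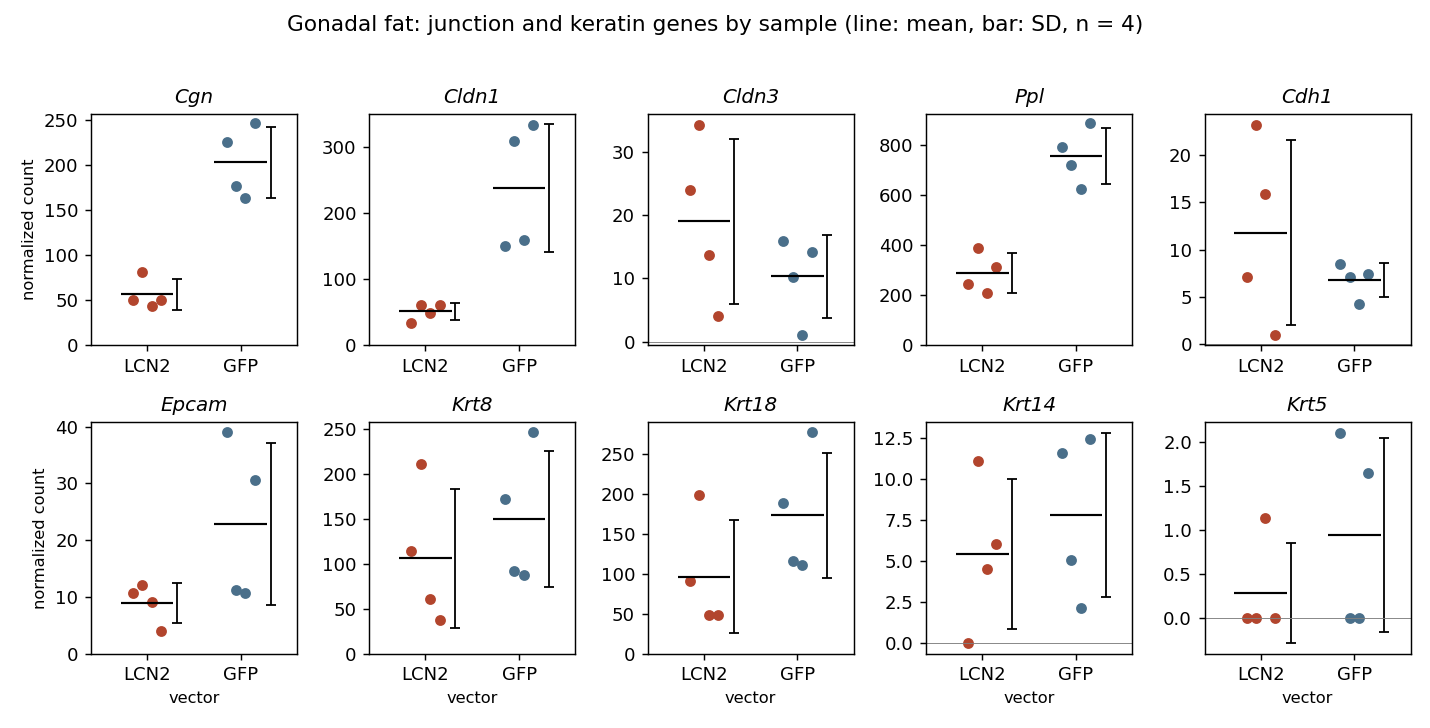
Each panel plots 1 gene in gonadal fat, with normalized counts on the vertical axis, the 4 LCN2 samples on the left and the 4 GFP samples on the right, in order of replicate number; lines are means and bars are SD. The groups of Cgn, Cldn1 and Ppl do not overlap, those of the other 7 genes do, and Krt5 stays at or under 2.11.

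Of the 7 genes tested in gonadal fat, Cgn and Ppl had an adjusted p under 0.05 in limma, and both were lower with LCN2. Among all 19536 genes tested the same held for 0.102% in either direction and for 0.0614% in the lower direction, and nothing is read from the comparison because these calls helped to choose the genes. Cldn1 lay just outside that threshold and Ppl just inside it, at adjusted p-values of 0.066 and 0.0493 in limma over all genes tested. Groups that did not overlap, lower with LCN2, were found for 3 of the 7, against 4.71% of all genes tested and 9.11% in either direction. The 7 had a median log2 difference of -1.13, that of all genes being 0.01. The calls of Cgn and Ppl both ended when libraries were scaled to their totals, and both ended when any one of LCN2 samples 1, 3 or 4 or GFP samples 1, 2 or 3 was left out, and Ppl lost its call without GFP sample 4, while the log2 difference of Cgn stayed between -2.03 and -1.74 and that of Ppl between -1.57 and -1.28 over all 8 such fits.

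Mesothelial markers lay on the same side as these genes. All 11 listed markers were measured in gonadal fat and all 11 had a negative log2 difference, with a median of -1.37, and 7 had groups that did not overlap. In limma 0 of the 11 passed the adjusted test and 9 had an unadjusted p under 0.05, against 14.8% of all genes tested. Of the 11, edgeR called 0 and DESeq2 called 9, all lower with LCN2. DESeq2 called 4.19% of all genes tested, and Cgn, Cldn1 and Ppl were its calls among the 10 genes. Bnc1, a zinc-finger factor of mesothelium and other epithelia, had normalized counts of 110.2, 168, 89.6 and 88.3 in LCN2 samples, against 380, 301, 280 and 475 in GFP samples, with an adjusted p of 0.066 in limma. Wt1, the mesothelial transcription factor, averaged 405 ± 120 with LCN2 and 980 ± 299 with GFP (SD, n = 4 each), with an adjusted p of 0.109 in limma. The summed level of the 11 markers was 94.4 to 231 CPM in LCN2 samples, against 206 to 522 CPM in GFP samples. The part of these markers' RNA in the differences of the junction genes was not tested.

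A mesothelial score, the mean of the 11 markers on the log2 scale after each was centred on its mean, ran from -0.92 to 0.17 in LCN2 samples, against 0.19 to 1.17 in GFP samples. LCN2 sample 2 was the highest of its group and GFP sample 4 the highest of all, as in Krt8 and Krt18. Because the vector groups differ in the score and in the levels of Cgn, Cldn1 and Ppl, the relation was read from values centred within each vector group, over 8 samples, by an exact two-sided permutation test within groups. The centred score correlated with Cgn at r = 0.955, with Krt18 at r = 0.921, with Ppl at r = 0.853 and with Krt8 at r = 0.843, at adjusted p-values from exact permutation of 0.0148, 0.0148, 0.0169 and 0.0236 over 34 relations. The other 3 genes did not pass, with r = 0.664 for Cldn3, 0.582 for Epcam and 0.526 for Cldn1. Centring takes out the mean difference between the vectors, but the genes and the marker lists were chosen with the data known.

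Without centring, 5 of the 7 genes correlated with the mesothelial score at an adjusted p under 0.05, 3 of them being the genes whose vector groups do not overlap. The vector difference, which helped to choose the genes, enters these values, so the count is a description. Among the 4 genes whose groups overlap, Krt18 had r = 0.896 and rho = 0.857 (exact permutation p = 0.00404 and 0.0107, adjusted p for r = 0.0196), and r was 0.79 (exact permutation p = 0.0431) without LCN2 samples 3 and 4, the 2 farthest from the median score. Epcam had r = 0.78 and rho = 0.833 (exact permutation p = 0.0201 and 0.0154, adjusted p for r = 0.0487), but r was 0.668 (exact permutation p = 0.149) over the 6 samples without those. The gonadal level of Epcam rests on 131 reads over the 8 libraries. Epcam passed the minimum mean only through the GFP samples, so its correlations are descriptions only. Krt8 had r = 0.747 (exact permutation p = 0.0363, adjusted p = 0.0748), and Cldn3 had r = 0.049 (exact permutation p = 0.914). Leaving out the 3 libraries with hepatocyte markers, r over the remaining 5 samples was 0.987 for Krt18 and 0.922 for Krt8, as values with no test.

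The mammary score could hardly be formed in gonadal fat. Of 16 listed mammary epithelial markers only Aldh1a3 and Prom1 passed the minimum, and 6, the caseins Csn1s1, Csn1s2a, Csn2 and Csn3 with Wap and Areg, were not in the gonadal table. None of the 7 genes correlated with this score of 2 markers at an adjusted p under 0.05 by exact permutation, 1 of them, Cldn3, having an unadjusted p of 0.028. After centring, the mammary score correlated with the centred mesothelial score at r = 0.78 and with Cgn at r = 0.835 (adjusted p = 0.0537 by exact permutation). The difference between the correlations with the mesothelial and the mammary scores was not tested. A hepatocyte score of 8 markers had centred r of 0.807 with Krt8, 0.777 with Epcam and 0.743 with Krt18, at adjusted p-values from exact permutation of 0.155, 0.0243 and 0.155 over 7 relations, so that Epcam passed with this score and not with the centred mesothelial score (adjusted p = 0.155 by exact permutation). Epcam had only 131 reads over the 8 gonadal libraries and passed the minimum only through the GFP samples, so both correlations are descriptions only. The difference between those 2 correlations was not tested. Without centring 0 of 7 genes passed an adjusted p under 0.05 by exact permutation, 1 of them, Cldn3, having an unadjusted p of 0.0397. The part of hepatocyte RNA in these levels was not tested.

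**Figure D3:**
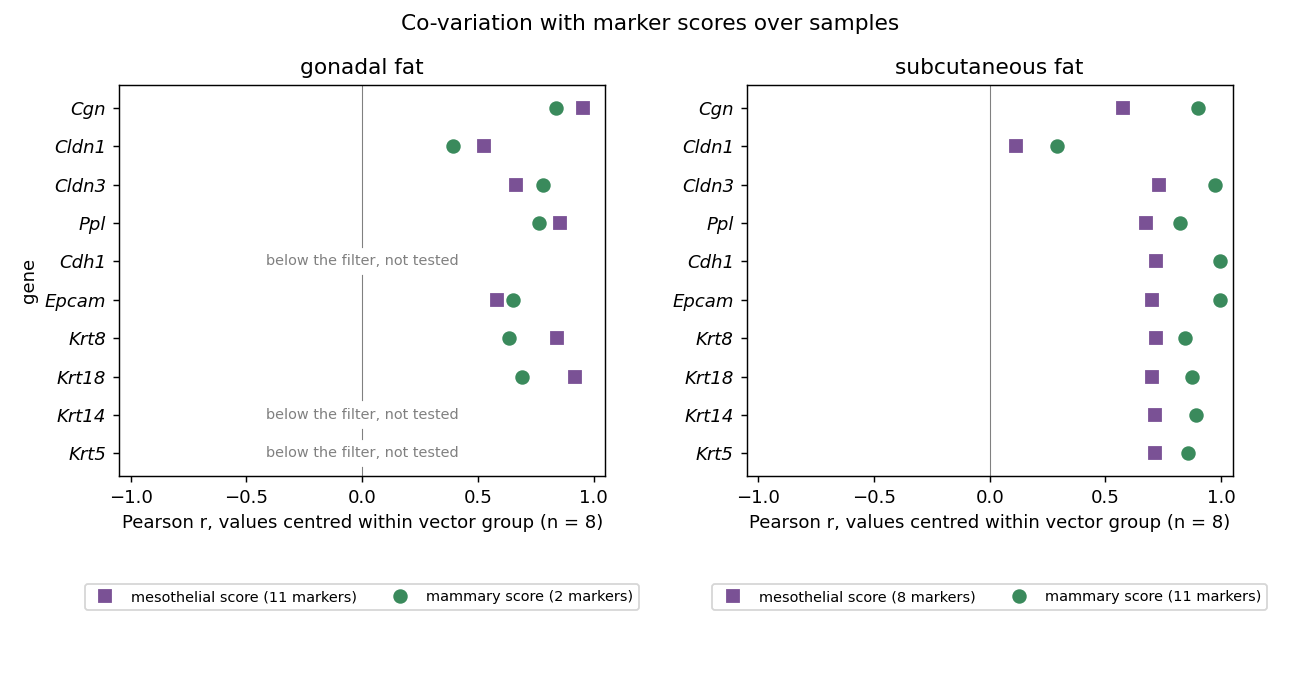
The horizontal axis gives Pearson's r over 8 samples after gene levels and scores were centred within each vector group, with the mesothelial score as squares and the mammary score as circles. In gonadal fat r with the mesothelial score ranges from 0.53 for Cldn1 to 0.96 for Cgn, and in subcutaneous fat r with the mammary score ranges from 0.29 for Cldn1 to 0.99 for Cdh1 and Epcam.

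When the mesothelial score entered the gonadal test as a covariate, the log2 differences were -1.01 for Cgn, -1.43 for Cldn1 and -0.71 for Ppl, at adjusted p-values of 0.23, 0.285 and 0.262 in limma. With that covariate Krt8 had a log2 difference of 1.37 ± 0.58 and Krt18 one of 0.96 ± 0.40 (SE), opposite in sign to the values without it, at adjusted p-values of 0.316 and 0.31 in limma. The score did not overlap between the vector groups, being at most 0.17 with LCN2 and at least 0.19 with GFP. The covariate and the vector therefore cannot be fully told apart in 8 samples, and the adjusted differences lack a shared range of the score.

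By likeness over the 8 gonadal samples, the 5 genes closest to Cgn among 15503 genes with a mean of at least 50 were Stk26 at r = 0.995, Gata5 at 0.993, Bnc1 at 0.993, Kcnab1 at 0.988 and Wnt2b at 0.984. Stk26 codes for a kinase, Gata5 for a transcription factor, Kcnab1 for a potassium channel subunit and Wnt2b for a secreted Wnt ligand. Ppl ranked 6 in that order, Cldn1 59, Krt18 512 and Krt8 1869. After centring, r was 0.949 for Stk26, 0.963 for Bnc1 and 0.872 for Wnt2b. The vector contrast enters the uncentred values, so the order is a description.

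**Figure D4:**
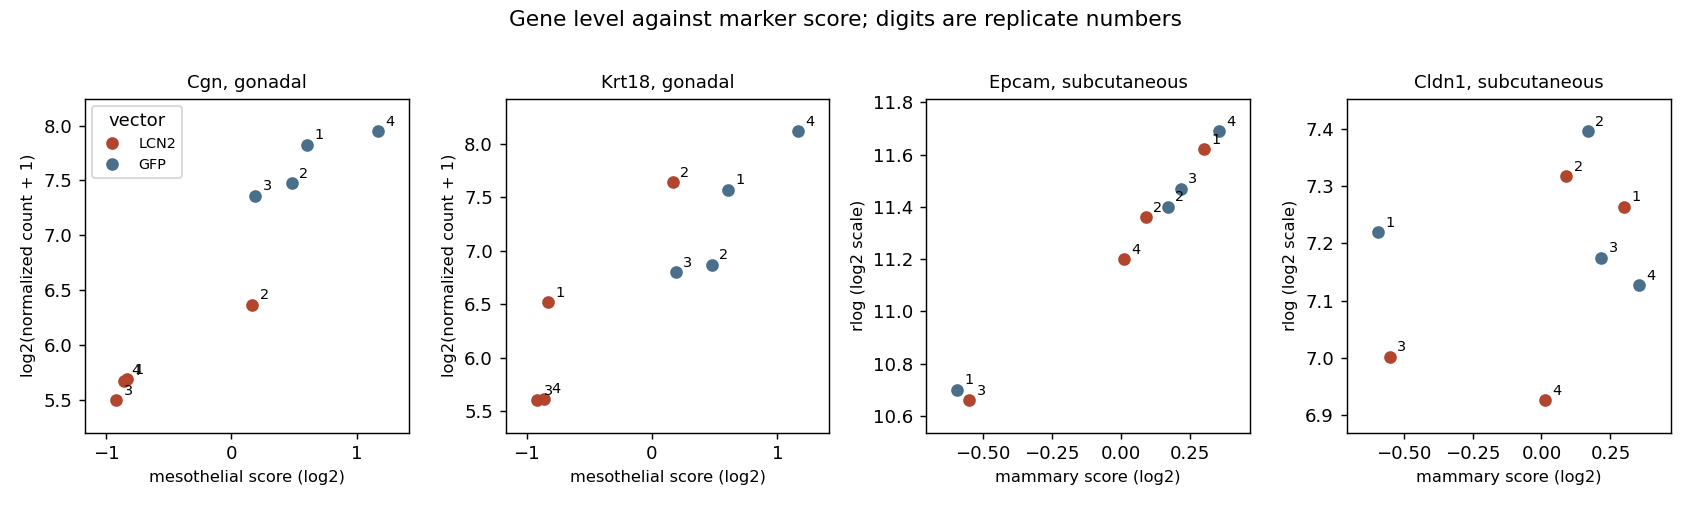
Each panel plots 1 gene's level, as log2 of the normalized count plus 1 in gonadal fat or as rlog in subcutaneous fat, against a marker score, both on a log2 scale, with points coloured by vector and numbered by replicate. Cgn and Krt18 follow the mesothelial score in gonadal fat and Epcam follows the mammary score in subcutaneous fat, where GFP sample 1 and LCN2 sample 3 stand apart at scores of -0.59 and -0.55, while Cldn1 shows no such order (r = 0.309).

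In subcutaneous fat none of the 10 genes differed between vectors by the test. All 10 passed the minimum there and 0 were called in limma, 0 having an unadjusted p under 0.05, as were 0.0% of the 20302 genes tested, of which 2851 had an unadjusted p under 0.05. The differences, on the rlog scale of log2 units, ran from -0.22 ± 0.26 for Cldn3 to 0.30 ± 0.43 for Krt5 (SE), at adjusted p-values between 0.672 and 0.972 in limma. No gene of the 10 had groups that did not overlap, against 7.08% of all genes tested in either direction and 3.27% of all genes tested in the lower direction. The median difference of the 10 was -0.08, that of all genes being 0.00, with 3 genes above 0 and 7 below. Rlog draws low values towards the gene's mean, so differences of low genes are understated.

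Among the tight junction genes, Cgn had rlog values of 9.37, 8.95, 8.68 and 9.33 in LCN2 samples, against 8.82, 9.36, 9.31 and 9.43 in GFP samples. Cldn3 had 9.84, 9.78, 8.97 and 9.70 in LCN2 samples, against 9.15, 9.77, 10.1 and 10.2 in GFP samples. LCN2 sample 3 and GFP sample 1 were the lowest of their groups for both. Cldn1 had a narrow range, 7.26, 7.32, 7.002 and 6.93 in LCN2 samples, against 7.22, 7.40, 7.17 and 7.13 in GFP samples, and here LCN2 sample 4 and GFP sample 4 were the lowest.

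The adhesion genes Cdh1 and Epcam had a similar order of samples to each other, at rho = 0.952. Cdh1 had rlog values of 11.5, 11.2, 10.7 and 11.3 in LCN2 samples, against 10.7, 11.3, 11.5 and 11.5 in GFP samples, and the difference was -0.07 ± 0.21 (SE). Epcam had 11.6, 11.4, 10.7 and 11.2 in LCN2 samples, against 10.7, 11.4, 11.5 and 11.7 in GFP samples, and the difference was -0.10 ± 0.25 (SE). In both genes LCN2 sample 3 and GFP sample 1 were nearly equal at the bottom, and the other 6 samples lay together above them. Ppl ran from 8.91 to 9.79 with LCN2, against 9.18 to 9.82 with GFP.

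The basal keratins spread most. Krt5 had rlog values of 10.7, 10.4, 9.56 and 9.63 in LCN2 samples, against 8.75, 9.51, 10.1 and 10.8 in GFP samples, which is the widest range of the 10 genes. Krt14 had 10.3, 9.98, 9.36 and 9.61 in LCN2 samples, against 8.82, 9.40, 9.78 and 10.35 in GFP samples, and its correlation with its partner Krt5 was r = 0.993 over the 8 samples. Both basal keratins were lowest in GFP sample 1 and highest in GFP sample 4 and LCN2 sample 1. Krt8 had 12.9, 11.9, 11.7 and 12.0 in LCN2 samples, against 11.4, 12.1, 12.1 and 12.3 in GFP samples, and Krt18 had 12.8, 12.1, 11.9 and 12.3 in LCN2 samples, against 11.8, 12.5, 12.5 and 12.4 in GFP samples. LCN2 sample 1 was the highest and GFP sample 1 the lowest of all 8 for both simple keratins.

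**Figure D5:**
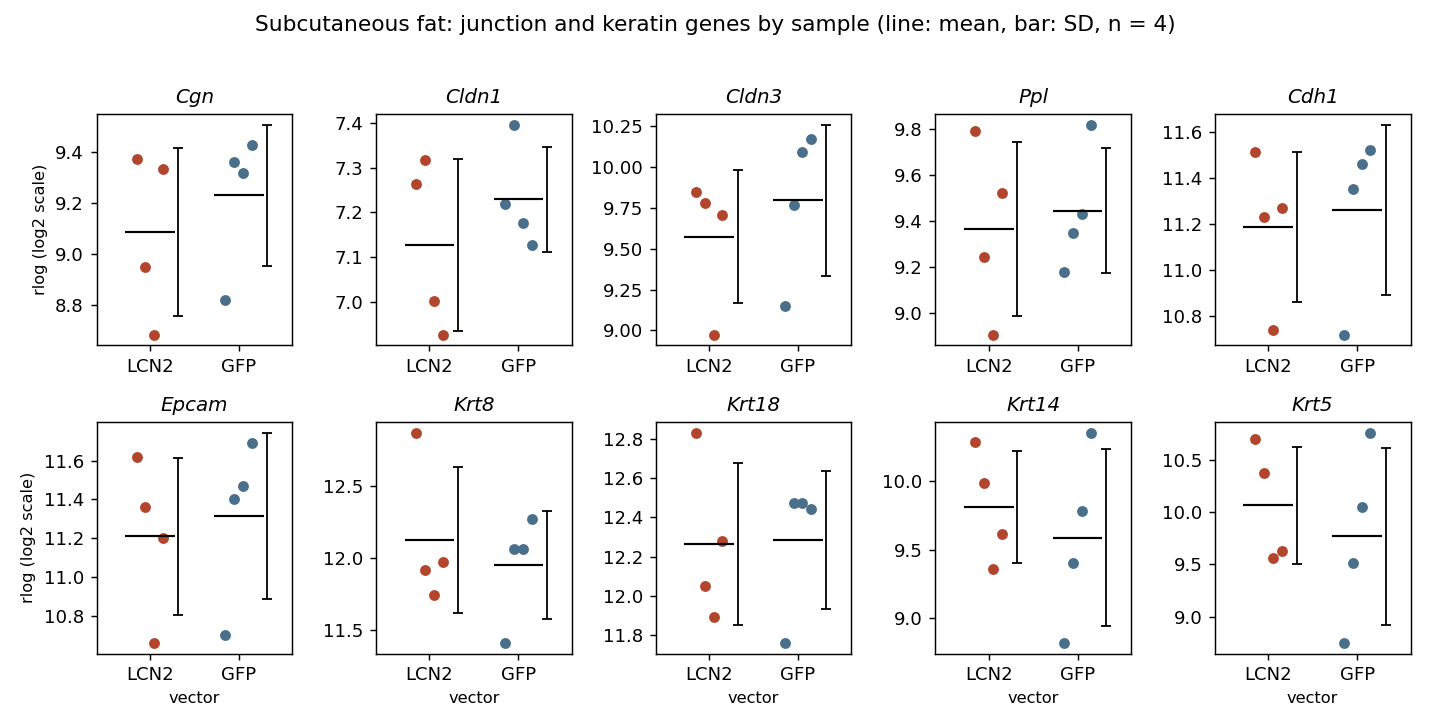
Each panel plots 1 gene in subcutaneous fat, with rlog on the vertical axis (log2 scale, axes not starting at 0), the 4 LCN2 samples on the left and the 4 GFP samples on the right, in order of replicate number; lines are means and bars are SD. The vector groups overlap in all 10 genes, and GFP sample 1 and LCN2 sample 3 are at the bottom of their groups for most of them.

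A mammary score formed from the 11 mammary epithelial markers that passed the minimum ran from -0.55 to 0.30 in LCN2 samples, against -0.59 to 0.35 in GFP samples. LCN2 sample 3 and GFP sample 1 had the lowest scores, and the other 6 samples lay between 0.01 and 0.35. Over all 8 samples 9 of the 10 genes correlated with it at an adjusted p under 0.05 by exact permutation, with Cldn1 as the exception at r = 0.309 (adjusted p = 0.542 by exact permutation). Cdh1 had r = 0.993 and rho = 0.976 (exact permutation p = 0.000124 and 0.000397, adjusted p for r = 0.00105), and Epcam had r = 0.992 and rho = 0.976 (exact permutation p = 4.96e-05 and 0.000397, adjusted p for r = 0.000562).

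Without LCN2 sample 3 and GFP sample 1, r was 0.989 for Epcam (exact permutation p = 0.00139) and 0.938 for Cdh1 (exact permutation p = 0.00833), while the other 8 genes had r between 0.258 for Cldn1 and 0.762 for Cldn3, and 0 of those 8 had an exact permutation p under 0.05 over the 6 samples. Among those 8, r stayed at 0.712 for Ppl and Krt5, 0.693 for Krt14 and 0.682 for Krt8, and was 0.515 for Cgn, against 0.89 for Cgn over all 8 samples. After centring within vector groups 6 of the 10 passed an adjusted p under 0.05 by exact permutation: Cdh1 at r = 0.994, Epcam at 0.993, Cldn3 at 0.972, Krt14 at 0.889, Krt5 at 0.855 and Krt8 at 0.842. GFP sample 1 was also the sample with the most B cell and lymph node transcripts, and leaving it out left 4 genes past the threshold, Cldn3, Ppl, Cdh1 and Epcam. Over the 5 samples without high B cell markers r was 0.998 for Epcam and 0.991 for Cdh1, as values with no test.

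Mesothelial markers were unevenly present in subcutaneous fat. Only 8 of the 11 passed the minimum. Muc16, a mucin gene, averaged an rlog of 8.59 ± 0.86 with LCN2 and 9.13 ± 1.1 with GFP (SD, n = 4 each), the highest of the 8, while Msln, the gene of mesothelin, averaged an rlog of 3.44 ± 0.24 with LCN2 and 3.34 ± 0.19 with GFP (SD, n = 4 each). None of the 10 genes correlated with the score of those 8 markers at an adjusted p under 0.05 by exact permutation, with r between 0.17 for Cldn1 and 0.74 for Cldn3, and 2 had an exact permutation p under 0.05 without adjustment, Cldn3 at 0.0374 and Cdh1 at 0.0463. The mesothelial and mammary scores of this depot correlated with each other at r = 0.68 over the 8 samples, and the difference between the correlations with each was not tested.

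The genes also varied with each other. In subcutaneous fat the 45 pairs had a median r of 0.81, and 26 passed an adjusted p under 0.05 by exact permutation over the 66 pairs of both depots. In gonadal fat the 21 pairs had a median r of 0.60 and 7 passed. The vector difference, which helped to choose the genes, enters these gonadal values, so that number is a description. Cgn with Cldn1, for one, had r = 0.919 in gonadal fat before centring. After centring the medians were 0.84 in subcutaneous and 0.66 in gonadal fat. The keratin partners Krt8 and Krt18 stayed together in both depots, at r = 0.949 in gonadal and 0.93 in subcutaneous fat. The centred r of Cgn with Ppl was 0.899 in gonadal and 0.884 in subcutaneous fat, but that of Cgn with Cldn1 was 0.326 in gonadal and 0.049 in subcutaneous fat.

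By likeness over the 8 subcutaneous samples, the 5 genes closest to Epcam among 16709 genes with a mean rlog of at least 5 were Irx2 at r = 0.994, Grhl2 at 0.991, Esrp1 at 0.99, Marveld3 at 0.99 and Prss8 at 0.986. Grhl2 is a grainyhead transcription factor, Esrp1 an epithelial splicing regulator, Marveld3 a tight junction protein, Prss8 a membrane protease of epithelia and Irx2 a homeobox factor. Cdh1 ranked 7 in that order and Cldn3 41, Cgn ranked 284, Krt18 317, Krt14 347, Ppl 348, Krt5 471 and Krt8 556, and Cldn1 ranked 3709.

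The other genes of these structures were counted by list. Over all 19536 genes tested in gonadal fat, 14.8% had an unadjusted p under 0.05 in limma. In subcutaneous fat the share was 14.0% of 20302 genes. Of 17 other tight junction genes tested in gonadal fat 0 passed the adjusted test in limma, with 4 at an unadjusted p under 0.05, and edgeR called 0 and DESeq2 3 (Cldn10, Cxadr and Pard6b, lower with LCN2); 5 had a positive and 12 a negative difference, and the median was -0.13. Pard6b, a cell polarity gene, had normalized counts of 74.7, 114, 76.0 and 67.2 in LCN2 samples, against 159, 170, 147 and 242 in GFP samples, with an adjusted p of 0.107 in limma. Cldn10, another claudin, averaged 38.0 ± 15.5 with LCN2 and 110.2 ± 29.1 with GFP (SD, n = 4 each), with an adjusted p of 0.111 in limma. Neither gene's groups overlapped. Of 24 tested in subcutaneous fat 0 passed in limma and 1 had an unadjusted p under 0.05, with a median of -0.06. That was Cldn5, the claudin of blood vessel walls, with an adjusted p of 0.308 in limma and an rlog of 11.1 ± 0.21 with LCN2 and 10.5 ± 0.40 with GFP (SD, n = 4 each).

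Of 18 desmosome and adherens junction genes tested in gonadal fat 0 passed in limma and 2 had an unadjusted p under 0.05, while edgeR called 0 and DESeq2 called those 2, Pkp1 and Afdn, both higher with LCN2. In all 13 had a positive and 5 a negative difference, and the median was 0.17. Pkp1, a desmosomal plaque protein, ran against Ppl, with normalized counts of 90.7, 635, 525 and 255 in LCN2 samples, against 65.4, 16.3, 32.9 and 35.6 in GFP samples. Every LCN2 sample lay above every GFP sample, LCN2 sample 1 being far below the other 3 of its group, and the log2 difference was 3.11 ± 0.62 (SE, adjusted p = 0.111 in limma). Dsg1b, a desmosomal cadherin of skin, had 25.8, 67.6, 27.2 and 31.1 in LCN2 samples, against 15.8, 0, 1.06 and 3.31 in GFP samples, with groups that did not overlap and an adjusted p of 0.158 in limma. Dsg1a averaged 43.1 ± 25.9 with LCN2 and 9.53 ± 5.01 with GFP (SD, n = 4 each), with overlapping groups and an adjusted p of 0.18 in limma, and of the 5 skin keratinocyte markers tested 0 passed in limma, edgeR called 0 and DESeq2 called 3. In limma 3 of the 5 had an unadjusted p under 0.05, Dsg1a and Dsg1b with a positive and Lgals7 with a negative difference. Dsg1b, with a mean of 5.05 in GFP samples, and Dsg1a passed the minimum mean of 10 only through the LCN2 samples. The differences, p-values and calls of Dsg1a and Dsg1b are therefore descriptions only. Lgals7, the gene of an epithelial galectin, averaged 16.6 ± 6.76 with LCN2 and 52.2 ± 28.1 with GFP (SD, n = 4 each), with overlapping groups and an adjusted p of 0.181 in limma. Afdn, which links nectins to actin, averaged 6845 ± 580 with LCN2 and 5244 ± 291 with GFP (SD, n = 4 each), with an adjusted p of 0.158 in limma.

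Of 6 other keratins tested in gonadal fat 0 passed in limma and 3 had an unadjusted p under 0.05, edgeR calling 0 and DESeq2 2 (Krt79, higher with LCN2, and Krt19, lower with LCN2). Krt79 had normalized counts of 219, 216, 246 and 258 in LCN2 samples, against 57.0, 115, 164 and 119 in GFP samples, with groups that did not overlap and an adjusted p of 0.165 in limma. Krt7, a simple keratin found in mesothelium and ducts, had 134, 316, 148.5 and 150.4 in LCN2 samples, against 332, 382.5, 261 and 520 in GFP samples; LCN2 sample 2 reached into the GFP range, as in Krt8 and Krt18, and the adjusted p was 0.187 in limma. Of 11 epithelial regulators tested 0 passed in limma, edgeR or DESeq2 and 2 had an unadjusted p under 0.05 in each, with a median difference of -0.09. Klf5, a zinc-finger factor of epithelia and adipocyte precursors, averaged 12.9 ± 5.80 with LCN2 and 29.6 ± 6.40 with GFP, and St14, a membrane protease, averaged 57.9 ± 27.97 with LCN2 and 31.1 ± 6.72 with GFP (SD, n = 4 each), at adjusted p-values of 0.19 and 0.273 in limma. Of 3 reproductive tract and ovary markers tested 0 passed in limma, edgeR or DESeq2, 0 having an unadjusted p under 0.05, and Inha averaged 26.3 ± 10.5 with LCN2 and 43.9 ± 12.7 with GFP (SD, n = 4 each, adjusted p = 0.374 in limma).

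In subcutaneous fat 0 of 19 desmosome and adherens junction genes, 0 of 13 other keratins, 0 of 21 epithelial regulators, 0 of 11 mammary epithelial markers and 0 of 8 mesothelial markers passed in limma, with 3, 1, 0, 0 and 1 of them at an unadjusted p under 0.05, in the same order. Their median differences on the rlog scale were 0.01, 0.14, -0.10, -0.11 and -0.06, in that order too. Of the mesothelial markers, Aldh1a2, the retinoic acid synthesis enzyme, had the smallest p, at an rlog of 7.18 ± 0.22 with LCN2 and 6.60 ± 0.17 with GFP (SD, n = 4 each), with groups that did not overlap and an adjusted p of 0.308 in limma. Cited1, a transcription cofactor of mammary epithelium, had an rlog of 7.91 ± 0.89 with LCN2 and 8.78 ± 0.60 with GFP (SD, n = 4 each), with an adjusted p of 0.418 in limma.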

How the data were processed

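RNA came from frozen tissue and was sequenced from stranded mRNA libraries, per the labels' protocols. The submitters' processing notes name HISAT2, DESeq2, GRCm38 and mm10. Their versions, the read counter and its annotation, and whether it used strand, were not given in the sources used here. The gonadal values the authors deposited were a signal per gene, counts already divided by 1 size factor per sample, called normalized counts here. Dividing by the worth of 1 read made 100% of them whole, within a tolerance of 1e-06, and gave 35173260 to 42890102 recovered reads per sample; 3 reads equalled 0.0699 to 0.0853 CPM. The subcutaneous values the authors deposited were rlog, a log2 scale, of unknown depth. Each table had its own normalization, so tests stayed within a table.

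Groups came from the labels. Apart from the group size, the labels do not call the samples separate mice, so a p-value measures only how much these samples spread. limma 3.58.1 (R 4.3.3) with an intensity trend was fitted to all genes, on log2 of the gonadal value plus 1 where the mean was at least 10, and on rlog where the mean was at least 3. LCN2 minus GFP is the direction of every difference. P-values were adjusted by Benjamini-Hochberg over all genes, with a threshold of 0.05. Correlations over 8 samples used exact two-sided permutation. The fits were tested on simulated data. edgeR 4.0.16 and DESeq2 1.42.0 were run on recovered reads only, as alternatives; others covered scaling, filters, pseudocounts, covariates, left-out samples and a replicate block. The 10 genes, the lists and the tests were chosen with earlier results of these data known. Beside the 10 genes, the rule for named genes took the 2 genes with the smallest p from each junction, keratin, regulator and epithelial marker list per depot, since none passed, and the 5 genes most like Cgn and Epcam. Some of these are left out of the text, and Lcn2, Msln, Cxadr, Krt19, Lgals7 and Muc16 were added after their values were seen. Gene positions come from a GRCm38 annotation.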

Additional observations from a re-analysis of the deposited data

Results flagged for a closer look

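A sample far from the other 3 of its group was found in 3 of 40 groups checked, the 10 genes in 2 depots and 2 vectors, and chance flags about 1 in 20 groups. Krt5 had a normalized count of 1.13 in gonadal LCN2 sample 3, from 1 read, and 0 in the other 3 LCN2 samples, which is within the counting limit. Cldn3 had an rlog of 8.97 in subcutaneous LCN2 sample 3, below the other 3 LCN2 samples at 9.70 to 9.84. Krt18 had an rlog of 11.76 in subcutaneous GFP sample 1, below the other 3 GFP samples at 12.4 to 12.5. The last 2 samples also had the lowest mammary scores.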

How the results depend on the processing

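Gonadal calls depended on the fit. Against 20 genes and 2 of the 10 (Cgn and Ppl), the numbers of genes and members called were 11 and 1 with a minimum mean of 50, 6 and 0 with library totals, 14 and 1 with TMM scaling, 7 and 0 with edgeR, 818 and 3 with DESeq2 (Cldn1 added), and 6 and 0 without the trend. They were 0 and 0 without LCN2 4 and GFP 2 (muscle markers), with the mesothelial score as covariate, and without LCN2 1, LCN2 2 and GFP 1 (hepatocyte markers, chosen after seeing the data). Leaving out 1 sample gave 1 to 66 genes and 0 to 2 members. The labels do not say what replicate numbers mark, and the main tests did not pair samples by them. Same-numbered deviations correlated at -0.36 to 0.42 in gonadal and -0.35 to 0.34 in subcutaneous fat. The same number was the best partner for gonadal replicates 1 and 3 and subcutaneous replicate 3. With the replicate block 0 genes and 0 members were called in either depot, the subcutaneous counts being 0 without it too. The number of members past the threshold was 4 to 6 against the gonadal mesothelial score (5 with all samples) and 4 to 9 against the subcutaneous mammary score (9 with all samples) when 1 sample was left out. These numbers were taken without centring, so the vector difference enters the gonadal ones. With the mesothelial covariate the sign of the log2 difference turned for Epcam (0.063), Krt8 (1.37), Krt18 (0.96), Krt7 (0.21), Aldh1a3 (0.96) and Inha (0.15), and Aldh1a3 was 0.10 without the muscle libraries. In subcutaneous fat it turned without GFP 1 and 2 for Krt8 (-0.040), Krt14 (-0.26) and Krt5 (-0.34), without LCN2 4, GFP 1 and 2 for Cldn1 (0.043), Krt14 (-0.19) and Krt5 (-0.20), with sample weights for Ppl (0.017), and for Krt18 with median centring (0.002) and the mammary covariate (0.039). Leaving out 1 sample gave log2 differences of -0.32 to 0.11 for Aldh1a3 in gonadal fat and, in subcutaneous fat, of -0.22 to 0.075 for Ppl, -0.25 to 0.075 for Cdh1, -0.31 to 0.079 for Epcam, -0.074 to 0.30 for Krt8, -0.21 to 0.10 for Krt18, -0.037 to 0.47 for Krt14, -0.043 to 0.63 for Krt5 and -0.021 to 0.22 for Emx2, and r of Cldn3 with the mesothelial score of -0.15 to 0.23. The causes were not tested.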
